A study of Homo sapiens with 24 samples.

Results

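The transcripts of 10 enzymes that make asparagine, serine, proline, cysteine and folate-bound one-carbon units were examined in CD18/HPAF cells, with and without ISOX. The genes are ASNS, PHGDH, PSAT1, PSPH, SHMT2, MTHFD2, MTHFD1L, ALDH18A1, PYCR1 and CTH. They were chosen by pathway and by their FPKM in these same 2 groups of cells, so their values are given as a description and no test was made on them. All 10 were found, each in a single row, among the 30276 rows of the table, and all 10 were among the 11964 rows with a mean of at least 1 FPKM over both groups, which are the rows called expressed here.

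CD18/HPAF is an established human pancreatic adenocarcinoma line of well differentiated cells from ascites. ISOX, also called CAY10603, is a histone deacetylase inhibitor with its strongest effect on HDAC6. Cells in DMEM with serum were given ISOX at 1 µM for 48 hours or were left untreated, and the labels list 12 samples in each group, with no vehicle named for the untreated cells. The comparison was made by the study to learn which transcripts ISOX affects. The deposited table holds 1 pooled level per gene and group in FPKM, sequenced fragments scaled by transcript length and by the size of the library. How the authors scaled the libraries to each other was not examined here. The values are the authors' and carry no SD and no n. No sample can be seen on its own, the depth is unknown, and whether a difference exceeds the spread between replicates was not examined here, since the authors' own test columns were not used. Sample titles carry 2 numbers, of which the first takes 3 values and the second 4, and the labels do not say whether the 12 samples of a group are separate cultures or repeat runs of fewer.

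Cells can make asparagine, serine, glycine and proline from intermediates of glycolysis and the citric acid cycle. Serine is made from 3-phosphoglycerate in a short chain of steps and then gives a carbon unit to tetrahydrofolate (THF), mostly in mitochondria, which feeds the synthesis of purines and thymidylate. When amino acids run short or protein folding is disturbed, translation of the transcription factor ATF4 is raised, and many of the genes described here are known ATF4 targets.

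Epithelial marker transcripts were abundant, with KRT8, KRT18, KRT19, EPCAM and CDH1 between 113 and 2970 FPKM in untreated cells and between 125 and 3325 FPKM with ISOX. Of 12 markers of blood cells, endothelium, fibroblasts, islets and acinar cells, none was above 2.68 FPKM in untreated cells, and the highest with ISOX was CD14 at 7.02 FPKM. Their summed level was 6.42 FPKM in untreated cells and 11.6 FPKM with ISOX, against 5435 and 6166 FPKM for the epithelial markers, and its part in the results was not tested. CD3E, GCG, PRSS1 and CPA1 were listed at 0 in both groups. Across the 11964 expressed rows the median log2 ratio of ISOX to untreated was 0.21, a 1.16-fold shift, and 77.0% of rows had a ratio above 1. Differences are therefore given as measured and, where named, relative to this median. Since RNA was taken from whole cultures, fewer cells of a type and less RNA per cell cannot be told apart.

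Of the 10 enzyme transcripts, 5 were at least 2-fold higher with ISOX, namely ASNS, CTH, PHGDH, PSAT1 and MTHFD2, and none was at least 2-fold lower. In the background, 386 of the 11964 expressed rows (3.23%) were called 2-fold higher and 90 (0.752%) 2-fold lower. This split of higher against lower calls depends on the scaling: it was 221 against 158 relative to the median of all rows and 162 against 264 with both groups brought to an equal sum of FPKM. These calls rest on size alone, and since the same values chose the members, nothing is read from the difference between the shares. MTHFD1L, PYCR1, SHMT2 and PSPH lay between 1.47-fold and 1.92-fold higher, and ALDH18A1 was 1.19-fold lower. The median log2 ratio of the 10 was 1.16, against 0.21 over all expressed rows. The same 5 enzymes stayed at least 2-fold above that median, as did 1.85% of the expressed rows. When both groups were instead scaled to an equal sum of FPKM, MTHFD2 came to a log2 ratio of 0.99 and 4 members were past 2-fold.

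**Figure D1:**
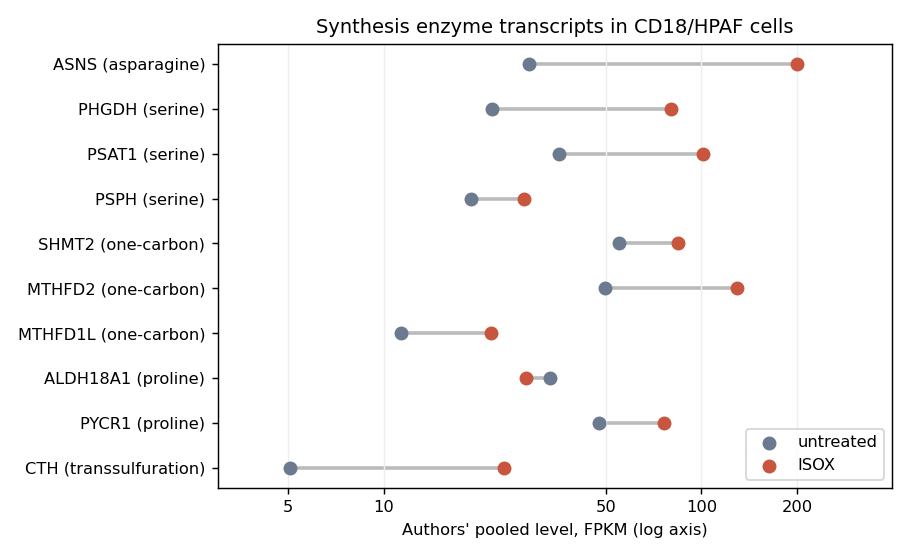
Pooled FPKM of the 10 enzymes (log axis) in untreated cells (grey points) and with ISOX (red points), with 1 value per group and no error bar. ASNS moves from 28.7 to 201 FPKM and CTH from 5.07 to 23.9 FPKM, while ALDH18A1 alone lies lower with ISOX.

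Summed over the 10 genes, the level was 307 FPKM in untreated cells and 773 FPKM with ISOX, or 0.0461% and 0.0885% of all FPKM in the table. All FPKM came to 667281 and 873757, of which a single short row, MIR6723, held 106942 and 141969. These percentages are therefore not shares of messenger RNA. In untreated cells SHMT2 had the highest level of the 10 and ASNS held 9.34% of their sum. With ISOX, ASNS was the highest and held 26.0% of it. Such shares within a group do not depend on how the groups were scaled to each other.

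**Figure D2:**
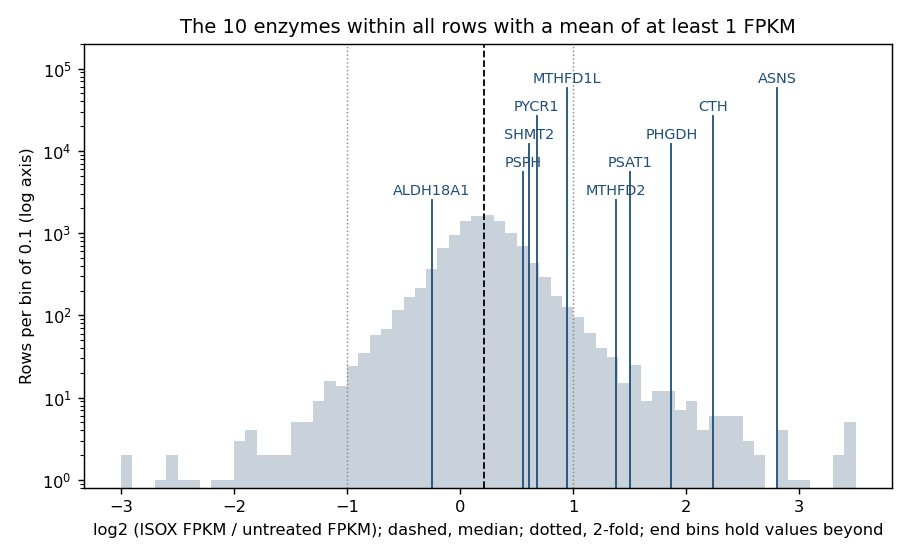
Log2 ratio of ISOX to untreated FPKM (x axis) against the number of rows per bin (log axis), with the 10 enzymes marked by vertical lines and values beyond the axis gathered in the end bins. The bulk of rows sits around the median of 0.21, with ASNS at 2.81 and CTH at 2.24 in the upper tail and ALDH18A1 at −0.25 on the other side of the median; rows at 0 in a group are not drawn.

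ASNS encodes asparagine synthetase, which moves an amide nitrogen from glutamine to aspartate, and its transcript had the highest ratio of the 10. Its row lies on chromosome 7 of hg38, from 97852117 to 97872542 on the minus strand, and stood at 28.7 FPKM in untreated cells and 201 FPKM with ISOX. That is a 6.99-fold difference, or 6.04-fold over the median of all rows. Its log2 ratio of 2.81 ranked 43 among the 11964 expressed rows, and by level the gene moved from rank 2711 in untreated cells to rank 471 with ISOX. A non-coding gene annotated on the same strand, AC079781.5, shares exon sequence with it in GENCODE, so their reads cannot be told apart. The paralog ASNSD1, which has an asparagine synthetase domain, was at 13.8 and 19.4 FPKM, so that ASNS exceeded it 2.08-fold in untreated cells and 10.3-fold with ISOX.

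The ASNS promoter is a textbook case of a C/EBP-ATF response element, a short site bound by ATF4 with C/EBP partners, and the core of that element, TGATGNAA, was therefore searched on both strands in RefSeq promoter windows of build GRCh38.p14, from 250 bases before to 50 after a start. A window was found for 7 of the 10 enzymes, and 2 of these, ASNS and MTHFD1L, held the letters. Of all 35116 windows, 1270 (3.62%) held them, and counted by gene they were in 239 of 8951 genes with an expressed row (2.67%). PHGDH, PSAT1, MTHFD2, ALDH18A1 and CTH had no match in their windows, which says only that these letters are not in those bases. Below are the ASNS window, which holds a match 68 bases before the start, a MTHFD1L window, with a match 129 bases before the start, and for comparison the window of CTH, the enzyme with the next highest ratio, with none. They lie at chr7:97872359-97872658 on the minus strand, chr6:150866236-150866535 on the plus strand and chr1:70411018-70411317 on the plus strand. Capitals mark the match, and each is written 5′ to 3′.
ASNS: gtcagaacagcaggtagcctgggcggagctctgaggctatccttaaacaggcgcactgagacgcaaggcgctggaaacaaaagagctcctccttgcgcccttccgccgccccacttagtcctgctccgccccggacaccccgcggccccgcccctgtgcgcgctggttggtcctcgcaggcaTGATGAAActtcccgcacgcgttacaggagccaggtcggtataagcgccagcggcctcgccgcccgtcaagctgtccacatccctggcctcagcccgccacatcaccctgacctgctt
MTHFD1L: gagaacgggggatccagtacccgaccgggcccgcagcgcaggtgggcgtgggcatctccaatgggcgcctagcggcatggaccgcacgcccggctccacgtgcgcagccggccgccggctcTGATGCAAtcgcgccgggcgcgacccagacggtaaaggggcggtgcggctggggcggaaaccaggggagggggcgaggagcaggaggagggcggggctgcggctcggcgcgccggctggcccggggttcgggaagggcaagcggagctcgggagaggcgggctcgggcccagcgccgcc
CTH: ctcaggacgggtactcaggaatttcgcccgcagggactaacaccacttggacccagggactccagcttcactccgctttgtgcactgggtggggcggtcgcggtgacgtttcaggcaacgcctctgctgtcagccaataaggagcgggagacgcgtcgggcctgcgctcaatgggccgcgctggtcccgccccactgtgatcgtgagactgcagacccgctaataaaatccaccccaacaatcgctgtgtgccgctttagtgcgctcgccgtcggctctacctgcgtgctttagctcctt

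The matches differ in the base left free: TGATGAAA in ASNS and TGATGCAA in MTHFD1L. A second ASNS window, for a start further into the gene, had no match. For MTHFD1L, 3 of 4 windows held the same site, which lies 129 or 90 bases before or 24 bases after the start they were drawn from. The starts of the windows are not the ends of the gene rows. The ASNS site, at 97872469 to 97872476, and the MTHFD1L site, at 150866357 to 150866364, lie inside the rows of their genes. A match of letters is a description and not evidence of binding, and no binding was measured in these cells.

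Around asparagine, the genes of aspartate, glutamate and alanine metabolism had smaller ratios. Of 16 expressed genes in this list, ASNS, a member, and GPT2 were at least 2-fold higher (12.5%), beside 3.23% of all expressed rows. None was 2-fold lower, beside 0.752%, and the median log2 ratio of the 15 genes other than ASNS was 0.35. With equal sums of FPKM, 1 gene of the list was at least 2-fold higher, beside 1.35% of all expressed rows. GPT2, the mitochondrial alanine transaminase, stood at 16.0 FPKM in untreated cells and 40.1 FPKM with ISOX, a log2 ratio of 1.33, while its cytosolic counterpart GPT was at 1.64 and 1.31 FPKM. The mitochondrial aspartate transaminase GOT2, which supplies the aspartate that ASNS uses, was at 77.3 and 95.7 FPKM and the cytosolic GOT1 at 25.7 and 41.3 FPKM. ASL, an enzyme of arginine synthesis, was at 66.1 and 59.2 FPKM.

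The first 2 enzymes of serine synthesis were higher with ISOX by more than the last. PHGDH, on chromosome 1 from 119711796 to 119744226, oxidizes 3-phosphoglycerate and was at 21.9 FPKM in untreated cells and 80.0 FPKM with ISOX, a 3.65-fold difference. PSAT1, on chromosome 9 from 78297075 to 78330093, transfers an amino group from glutamate and was at 35.6 and 101 FPKM, a 2.84-fold difference. PSPH, on chromosome 7 from 56011051 to 56051575, removes the phosphate to give serine and was at 18.8 and 27.7 FPKM, or 1.47-fold higher. The 3 folds thus decline in the order of the steps. Within each group, PHGDH exceeded PSPH 1.16-fold in untreated cells and 2.89-fold with ISOX, and PSAT1 exceeded it 1.89-fold and 3.65-fold. Against all expressed rows PHGDH ranked 90 by log2 ratio and PSAT1 143, while PSPH ranked 1669, with 86.0% of rows below it.

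The glycolytic genes around this branch point had ratios mostly below 1. Of these 15 genes none was past 2-fold in either direction, the median log2 ratio was −0.17, and only 1 had a ratio above the median of all rows. GAPDH was at 3454 FPKM in untreated cells and 3069 FPKM with ISOX, PKM at 1283 and 1376 FPKM, and PGK1, which makes 3-phosphoglycerate, at 829 and 653 FPKM. PHGDH was 0.0264 times the level of PGK1 in untreated cells and 0.123 times with ISOX. ENO2, the neuronal form of enolase, was the lowest of the list by ratio, at 23.2 and 11.7 FPKM, a log2 ratio of −0.99. It was past 2-fold lower relative to the median of all rows, beside 1.32% of all expressed rows. With equal sums of FPKM, 3 genes of the list were so, beside 2.21%.

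Among the other serine and glycine genes, none of the 7 expressed genes that are not members was past 2-fold, and their median log2 ratio was 0.21. GCSH, the lipoyl carrier of the glycine cleavage system, was highest of these at 46.7 and 87.4 FPKM. GLDC, which starts glycine cleavage, was at 0.0106 and 0.0227 FPKM, below the 1 FPKM minimum, as were 4 further listed genes.

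A grouping by compartment, made after the values were seen, set 5 one-carbon enzymes of mitochondria beside a related enzyme. Of these 5, MTHFD2 and ALDH1L2 were at least 2-fold higher with ISOX, beside 3.23% of all expressed rows. SHMT2, on chromosome 12 from 57229573 to 57240692, takes a carbon from serine in mitochondria and was at 55.2 FPKM in untreated cells and 84.2 FPKM with ISOX, 1.53-fold higher. Its cytosolic isoenzyme SHMT1 was at 21.8 and 18.1 FPKM. MTHFD2, in a row on chromosome 2 from 74198563 to 74343407, oxidizes methylene-THF in mitochondria and was at 49.7 and 129 FPKM, 2.60-fold higher. Its close relative MTHFD2L was at 1.10 and 1.23 FPKM, so MTHFD2 held nearly all of this step's transcript in both groups. MTHFD1L, on chromosome 6 from 150865679 to 151102117, releases formate from formyl-THF in mitochondria and was at 11.3 and 21.8 FPKM, 1.92-fold higher and just short of the 2-fold line. MTHFD1, which carries the same reactions in the cytosol, was at 59.6 and 61.8 FPKM.

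Ratios between isoenzymes within each group do not depend on the scaling between the groups. SHMT2 exceeded SHMT1 2.54-fold in untreated cells and 4.66-fold with ISOX. MTHFD2 was 0.834 times the level of MTHFD1 in untreated cells and 2.09 times with ISOX, and MTHFD1L was 0.190 and 0.353 times that level. A gene of the same arm that is not a member, ALDH1L2, the mitochondrial formyl-THF dehydrogenase, had a larger ratio than any of these, at 1.57 FPKM in untreated cells and 8.59 FPKM with ISOX. This 5.47-fold difference ranked 53 among expressed rows. The cytosolic ALDH1L1 was at 0.683 and 1.07 FPKM, and ALDH1L2 exceeded it 2.30-fold and 8.03-fold. The log2 ratios of SHMT2, MTHFD2, MTHFD2L, MTHFD1L and ALDH1L2 ran from 0.17 to 2.45. Those of the cytosolic SHMT1, MTHFD1 and ALDH1L1 were −0.27, 0.05 and 0.65, the last above that of SHMT2 but from a level under the minimum. Relative to the median of all rows, MTHFD2L and MTHFD1 were both slightly lower. Other mitochondrial genes of the folate list were outside this grouping, among them MTFMT, which formylates the initiator tRNA and was at 5.53 and 5.52 FPKM.

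**Figure D3:**
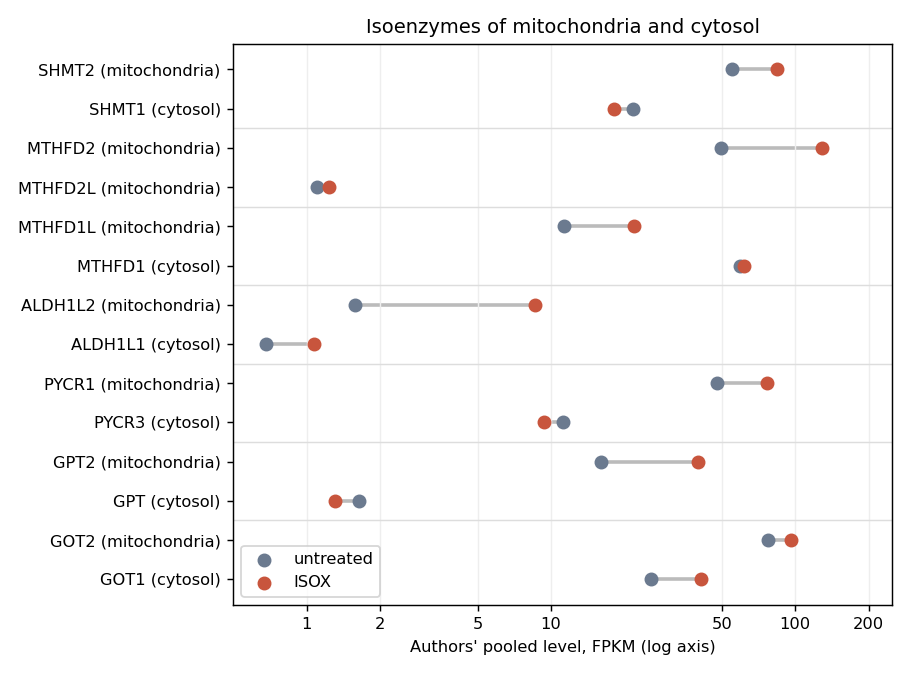
Pooled FPKM (log axis) of isoenzymes in untreated cells (grey) and with ISOX (red), with the compartment of each in its label. The ISOX point lies farthest to the right of its untreated point for ALDH1L2, from 1.57 to 8.59 FPKM, MTHFD1 goes only from 59.6 to 61.8 FPKM, and SHMT1, PYCR3 and GPT lie slightly to the left with ISOX.

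The rows of SHMT2 and MTHFD2 span a locus shared with a neighbor on the other strand, and whether the counting used strand is not stated in what was read here. The overlapping rows had low levels: NDUFA4L2, beside SHMT2, was at 0.254 and 0.523 FPKM, and SLC4A5, beside MTHFD2, at 0.783 and 1.21 FPKM. A pseudogene of MTHFD2, MTHFD2P1, was at 0.0644 and 0.239 FPKM. GENCODE also annotates pseudogenes of ASNS, PSAT1 and PSPH, and how reads shared with such copies were assigned is not known, so the levels of these genes are uncertain to that extent.

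The wider folate list showed few large differences. Of its 20 expressed genes, MTHFD2, a member, and ALDH1L2 were at least 2-fold higher (10.0%), beside 3.23% of all expressed rows. None was 2-fold lower, beside 0.752%. The 17 genes that are not members had a median log2 ratio of 0.00, below that of all rows. GART, which uses formyl-THF in purine synthesis, was at 58.2 and 79.4 FPKM. TYMS, which makes thymidylate, was at 28.4 and 26.0 FPKM.

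The 2 proline enzymes lay on opposite sides of their untreated levels. ALDH18A1, on chromosome 10 from 95605929 to 95656810, makes pyrroline-5-carboxylate from glutamate and was at 33.3 FPKM in untreated cells and 28.0 FPKM with ISOX, a log2 ratio of −0.25. Only 7.94% of expressed rows had a lower ratio, and its rank by level went from 2388 to 3209. PYCR1, on chromosome 17 from 81932386 to 81937328, reduces pyrroline-5-carboxylate to proline in mitochondria and was at 47.7 and 76.3 FPKM, 1.60-fold higher. PYCR1 therefore exceeded ALDH18A1 1.43-fold in untreated cells and 2.72-fold with ISOX. The cytosolic PYCR3, listed in the table as PYCRL, was at 11.2 and 9.32 FPKM, so that PYCR1 exceeded it 4.27-fold in untreated cells and 8.19-fold with ISOX. PYCR3 has 2 rows, of which the one with the higher mean was used, so its level may not cover all of its reads. Exons of PYCR1 overlap those annotated for MYADML2, whose row was at 0.0312 and 0.0954 FPKM.

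None of the 16 expressed genes of proline and ornithine metabolism was past 2-fold, and the 14 that are not members had a median log2 ratio of 0.15. OAZ1, the antizyme that restrains polyamine synthesis, was at 966 and 1026 FPKM, and SMS, spermine synthase, at 90.7 and 102 FPKM. PRODH and PRODH2, which break proline and hydroxyproline down, were listed at 0 in both groups. PRODH has 2 rows, the second on an unlocalized scaffold, so its 0 may be a failed assignment of reads and gives no level.

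CTH, which cleaves cystathionine to give cysteine, had the next highest ratio after ASNS and was the least abundant of the 10 in untreated cells. Its row, on chromosome 1 from 70411218 to 70439851, stood at 5.07 FPKM in untreated cells and 23.9 FPKM with ISOX, a 4.72-fold difference that ranked 63 among expressed rows. By level it went from rank 8379 to rank 3622. With 1 FPKM added to both groups its log2 ratio was 2.04 in place of 2.24. CBS, which makes the cystathionine that CTH uses, was listed at 0 in both groups on both of its rows, at 43053191 and 6444869 of chromosome 21. These rows are copies of the same gene in the hg38 assembly, so an exact 0 here may be a failed assignment of reads and gives no level for CBS.

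Apart from CTH, the listed genes of the methionine cycle and transsulfuration had a median near that of all rows. Of 15 expressed genes, only CTH, a member, was at least 2-fold higher (6.67%), beside 3.23% of all expressed rows. None was 2-fold lower, and the other 14 had a median log2 ratio of 0.29. The highest of the 14 was SQOR at 0.86. The 14 also hold genes outside the methionine cycle, among them SQOR and GOT1. AHCY, which hydrolyzes S-adenosylhomocysteine, was at 156 and 176 FPKM and MAT2A, which makes S-adenosylmethionine, at 135 and 165 FPKM. CTH was 0.0325 times the level of AHCY in untreated cells and 0.136 times with ISOX.

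Beside related groups of genes, the log2 ratios of the 10 enzymes ran from −0.25 to 2.81, with a median of 1.16. Those of the stress factors ran from −0.45 to 2.84 (median 0.85). The lowest was ATF5, at 12.3 FPKM in untreated cells and 8.99 FPKM with ISOX. Those of the cytosolic aminoacyl-tRNA synthetases ran from 0.13 to 1.44 (median 0.65), and those of the amino acid transporters from −0.28 to 4.20 (median 0.37). The upper ends of stress factors and transporters are single genes, ATF3 and SLC43A1, both under 1 FPKM in untreated cells. The 10 enzymes were chosen with their values known. Each group was read from the same 2 columns, and no difference between groups was tested. Among factors and feedback genes of the ATF4 and CHOP response, 7 of 16 expressed genes were at least 2-fold higher (43.8%). The share over all expressed rows was 3.23%, and the median log2 ratio of the 16 was 0.85. Relative to the median of all rows the count was 6, beside 1.85% of all expressed rows. With equal sums of FPKM it was also 6, beside 1.35%. The ATF4 transcript itself was at 178 FPKM in untreated cells and 273 FPKM with ISOX, 1.53-fold higher, and EIF2AK1, a kinase that starts the response, at 58.1 and 64.3 FPKM. The 7 were ATF3, DDIT3, CEBPB, TRIB3, CHAC1, SESN2 and DDIT4, with log2 ratios from 1.00 for DDIT4 to 2.84 for ATF3. ATF3 was at 0.927 and 6.66 FPKM and so reached the minimum of 1 FPKM only through its level with ISOX. TRIB3 shares its row with RBCK1. The row of DDIT3 spans the same locus as that of MARS, a synthetase named below, and how their reads were divided is not known.

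Among amino acid transporters, 6 of 21 expressed genes were at least 2-fold higher (28.6%), beside 3.23% of all expressed rows. The median log2 ratio of the 21 was 0.37. Relative to the median of all rows the count was 4, beside 1.85% of all expressed rows. With equal sums of FPKM it was 3, beside 1.35%. SLC7A5 and SLC3A2, the 2 chains of a carrier of large neutral amino acids, were at 37.4 and 151 FPKM and at 101 and 227 FPKM. SLC38A2, a carrier of small neutral amino acids, was at 105 and 252 FPKM, and SLC7A1, of cationic ones, at 9.34 and 21.6 FPKM. SLC6A9 and SLC43A1 were at 0.707 and 0.450 FPKM in untreated cells and at 4.02 and 8.27 FPKM with ISOX, so that both reached the minimum only through ISOX. Of those not past 2-fold, the glutamine carrier SLC1A5 was at 110 and 199 FPKM and SLC38A1 at 35.4 and 52.3 FPKM.

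Of 20 cytosolic aminoacyl-tRNA synthetases, which charge tRNAs for translation, 4 were at least 2-fold higher (20.0%), beside 3.23% of all expressed rows. The median log2 ratio of the 20 was 0.65. Relative to the median of all rows 3 were past 2-fold, beside 1.85% of all expressed rows. With both groups scaled to an equal sum of FPKM 1 was, beside 1.35%. The 4 were the enzymes for glycine, methionine, serine and tryptophan, listed as GARS, MARS, SARS and WARS. WARS had the highest log2 ratio at 1.44. The most abundant of the others, listed as AARS in a row joined with EXOSC6 and as KARS, had log2 ratios of 0.96 and 0.47. None of the 17 mitochondrial synthetases was past 2-fold, and their median of 0.23 was next to that of all expressed rows. IARS2 was at 56.1 and 64.2 FPKM and CARS2 at 23.8 and 24.8 FPKM.

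**Figure D4:**
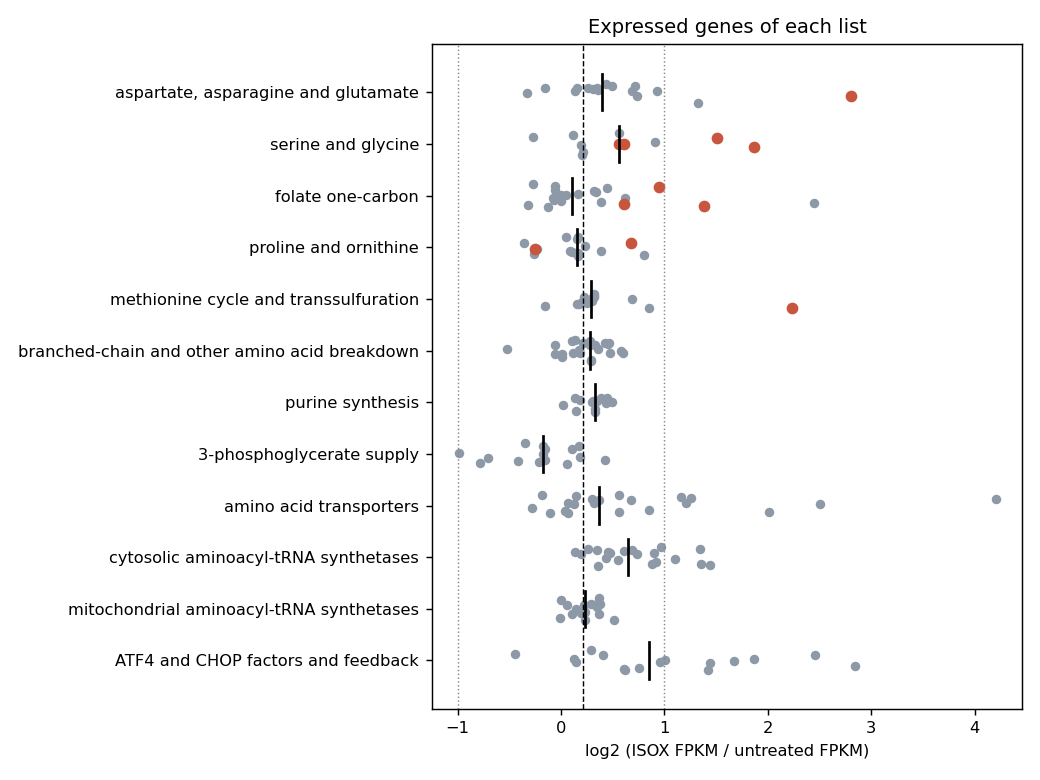
Log2 ratio of ISOX to untreated FPKM for every expressed gene of each list, with the 10 enzymes in red, other genes in grey, the list median as a black bar, the median of all rows as a dashed line and 2-fold as dotted lines. ASNS, at 2.81, and CTH, at 2.24, lie to the right of every other gene of their lists, while the 2 proline enzymes at −0.25 and 0.68 lie within the range of theirs.

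Over all pathway lists together, 2 of the 111 expressed genes that are not members, GPT2 and ALDH1L2, were at least 2-fold higher (1.80%). The share over all expressed rows was 3.23%. None of the 111 was 2-fold lower, and their median log2 ratio was 0.18. The 10 enzymes were picked out of these same pathways with the values in view. The contrast of the 10 with the 111 therefore describes where the large differences lay and is no test of it.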

How the data were processed

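RNA of 12 untreated and 12 ISOX-treated CD18/HPAF samples was sequenced by the authors as paired reads of 75 bases from TruSeq libraries. Alignment to hg38 and quantification used Bowtie, TopHat, Cufflinks and Cuffdiff according to the submitters' processing notes. Versions, annotation, filters and strand setting were not found in the labels or methods. For each gene row and group a single FPKM value, pooled over samples, was deposited by the authors. The table also holds the authors' log2 fold change, test statistic, p-value and q-value, and none of these was used.

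Log2 ratios of ISOX over untreated FPKM were computed from the deposited values with no pseudocount, over rows with a mean of at least 1 FPKM. A row was called at a 2-fold difference. Of the expressed rows, 49 were listed at 0 in a group (30 untreated, 19 ISOX) and counted as past 2-fold. The counting was tested on made-up data with known folds, all well past 2-fold. That checks the counting only and says nothing about rows near the line or at 0.

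Members and lists were chosen with earlier results of these data known. Named genes are the members, their paralogs, ATF4 and, per list, every expressed gene past 2-fold and the 2 most abundant others. GPT, GOT1, GLDC, ALDH1L1, TYMS, PGK1, ENO2, MTFMT, BCAT1, BCAT2, PRODH, PRODH2, SQOR, ATF5 and MIR6723 were named after their values were seen. All 234 symbols looked up were matched, 24 through an older symbol. Where a symbol had several rows, as for PYCR3 and GART, the row with the highest mean was used. Annotation is GENCODE release 29 on GRCh38, the assembly of hg38, and starts count from 1. Protein sequences were not analysed here, and some genes covered by the naming rule are not reported here. Tools were Python 3.11.15, numpy 2.4.6, pandas 2.3.3 and matplotlib 3.10.9. Alternatives varied the pseudocount (1 and 0.1), the minimum (none and 10 FPKM), the fold (1.5), the scaling and the rows kept.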

Additional observations from a re-analysis of the deposited data

How the results depend on the processing

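Of 11 alternatives, 2 (leaving out rows at 0 in a group, and protein-coding rows with a single name) were chosen after seeing the data. Only the 3 scalings can change the direction of an enzyme, and the direction of all 10 was kept under them. A pseudocount can change the size of a ratio but not its direction. The other alternatives change only the cutoff or the rows kept and leave the ratios of the enzymes as they were. The log2 ratio of ASNS ranged from 2.42 to 2.81 and that of ALDH18A1 from −0.64 to −0.24. With equal FPKM sums MTHFD2 was no longer past 2-fold (log2 ratio 0.99). The median log2 ratio of the members, 1.16 as reported, was 0.95 relative to the median of all rows, 0.77 with equal sums and 0.79 with equal sums over all but the 10 highest rows. The share of rows at least 2-fold higher, 3.23% as reported, was 2.11% with a pseudocount of 1, 6.82% with no minimum, 12.6% at 1.5-fold, and 1.85%, 1.35% and 1.41% under the 3 scalings.

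At 1.5-fold, 12.6% of all expressed rows were higher and 2.40% lower. Higher at this line were 8 of the 10 members, 6 of 16 aspartate genes, 4 of 11 serine genes, 5 of 20 folate genes and 2 of 16 proline genes. So were 3 of 15 methionine genes, 1 of 23 breakdown genes, 11 of 20 cytosolic synthetases and 11 of 16 ATF4 and CHOP factors. Of 15 glycolytic genes, 3 were lower. The lists include the members, and nothing is read from these counts. With no minimum, 6.82% of rows were higher and 3.97% lower. In that setting 1 aspartate gene was lower, 2 methionine genes were higher, and 1 breakdown gene was higher and 1 lower. With a minimum of 10 FPKM, 1 folate gene was higher, beside 2.96% of the rows kept. Relative to the median, 1 glycolytic gene was lower, beside 1.32% of all expressed rows. Under both sum scalings, 1 aspartate gene, 3 transporters and 1 cytosolic synthetase were higher and 3 glycolytic genes lower. With equal sums over all rows 1 folate gene was higher. Of all expressed rows, 1.35% and 1.41% were higher under the 2 sum scalings, and 2.21% and 2.08% lower.

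No paired analysis was possible because the table holds 1 pooled value per group. For the same reason leaving out a replicate was not run, the values carry no error, and depth is unknown.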

Other observations

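All 13 genes of purine synthesis, which draws on glycine and formyl-THF, were expressed, with log2 ratios from 0.02 to 0.49 and a median of 0.33, so none was past 2-fold. PAICS was at 107 FPKM in untreated cells and 122 FPKM with ISOX, and IMPDH2 at 86.2 and 107 FPKM. Of 23 expressed genes that break down branched-chain and other amino acids, none was past 2-fold and the median log2 ratio was 0.28. With no minimum level 1 was higher and 1 lower, beside 6.82% and 3.97% of all rows in that setting. HIBADH, of valine breakdown, was at 60.5 and 83.8 FPKM and PCCB, of propionyl-CoA carboxylase, at 61.5 and 79.0 FPKM. BCAT1, the cytosolic branched-chain transaminase, was near 0 in both groups, while the mitochondrial BCAT2 was at 25.8 and 35.4 FPKM. Both BCAT genes were named after their values were seen.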
